A study of Mus musculus with 12 samples.

Results

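Perforin, granzyme A, NKG7, NKp46 and CD226 were followed in RNA from CD31+ cells of the mouse lung. The genes Prf1, Gzma, Nkg7, Ncr1 and Cd226 were chosen by name, as 5 genes of natural killer cells and cytotoxic T cells. They were chosen among the 9338 genes that the deposited tables list at least once, with earlier results of these data known. CD31 is an adhesion molecule of the endothelial surface that some leukocytes also carry, so other cells come along with the endothelial cells that it selects. The 12 libraries came from 12 male mice on a C57Bl/6J background, 3 in each of 4 groups, and every mouse carried floxed Tet2 alleles (TET2fl/fl) and received tamoxifen (40 mg/kg on 3 days) at an age of 6 to 8 weeks. TET2 KO mice also carried the Cdh5-CreERT2 recombinase, which deletes Tet2 in endothelial cells, and WT mice did not. A week later the mice were fed for 20 weeks either chow with 13% of its energy from fat or a high-fat diet (HFD) with 60%. The groups are written here as WT_CHOW, KO_CHOW, WT_HFD and KO_HFD.

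A cytotoxic lymphocyte kills by emptying granules against its target. Perforin, the product of Prf1, opens pores in the target membrane, and granzyme A, a serine protease encoded by Gzma, enters through them. NKG7 is a membrane protein of those granules that takes part in their release. NKp46, encoded by Ncr1, is an activating receptor found on natural killer cells and related innate lymphocytes, whereas CD226 (DNAM-1) is an adhesion and activating receptor of natural killer cells, T cells and some other leukocytes that binds CD155 and nectin-2. The lung holds many natural killer cells within its capillaries. None of the 5 genes is an endothelial marker.

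The promoters are shown as background, and no link between their sequence and the levels of these genes was tested. RefSeq windows on GRCm38.p6 were at hand for 4 of the 5 genes. Each line gives the bases before the transcript start, read 5′ to 3′ on the strand of the gene and no further than the span of the gene in the deposited tables. Capitals mark the motif TGTGGT of RUNX factors (or its reverse complement) and the spaced motif TTCNNNGAA of STAT factors. The stretches are chr10:61297586-61297832 (+) for Prf1, chr13:113100982-113101231 (−) for Gzma, chr7:43436888-43437072 (+) for Nkg7 and chr7:4337465-4337714 (+) for Ncr1.
Prf1: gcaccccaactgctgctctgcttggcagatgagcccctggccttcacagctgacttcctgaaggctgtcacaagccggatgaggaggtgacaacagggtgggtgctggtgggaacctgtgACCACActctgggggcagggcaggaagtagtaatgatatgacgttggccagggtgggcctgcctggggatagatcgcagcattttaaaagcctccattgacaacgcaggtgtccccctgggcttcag
Gzma: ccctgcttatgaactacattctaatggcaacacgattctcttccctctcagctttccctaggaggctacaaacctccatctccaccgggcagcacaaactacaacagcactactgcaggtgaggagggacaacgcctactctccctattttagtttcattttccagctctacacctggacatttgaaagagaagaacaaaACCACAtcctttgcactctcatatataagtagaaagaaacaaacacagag
Nkg7: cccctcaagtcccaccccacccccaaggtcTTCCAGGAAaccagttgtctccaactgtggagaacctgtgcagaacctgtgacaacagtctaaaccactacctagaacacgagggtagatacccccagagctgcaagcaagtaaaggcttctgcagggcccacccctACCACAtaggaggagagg
Ncr1: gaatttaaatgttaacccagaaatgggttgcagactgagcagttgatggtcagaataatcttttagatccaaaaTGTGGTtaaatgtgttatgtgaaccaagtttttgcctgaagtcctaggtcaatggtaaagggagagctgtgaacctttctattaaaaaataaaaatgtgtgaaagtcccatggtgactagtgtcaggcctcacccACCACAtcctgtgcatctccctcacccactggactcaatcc
Within the 250 bases before the RefSeq start, TGTGGT was present on either strand in all 4 promoters, at 1 place in Prf1, Gzma and Nkg7 and at 2 places in Ncr1. The nearest match lay 36 bases before the start in Ncr1, 45 in Gzma, 78 in Nkg7 and 125 in Prf1. The same motif occurred in 14.0% of the 32851 windows of that length. The T-box motif AGGTGTGA and the shorter GGTGTG that it contains were found only in the Nkg7 window among these 4, beyond the stretch printed, and occurred in 1.12% and 16.3% of all windows. TTCNNNGAA was found in the Nkg7 window and in 7.02% of all windows. The ETS core GGAA, which overlaps the STAT match of Nkg7, was found in the windows of Prf1 (3 matches), Gzma (3) and Nkg7 (4), not in that of Ncr1, and in 93.4% of all windows. The CRE motif TGACGTCA was in none of the 4 and in 1.55% of all windows. A match describes the letters only, and a window without one says nothing about the factor.

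The deposited positions on mm10 place Prf1 (ENSMUSG00000037202) on chromosome 10 from 61297833 to 61304680, Gzma (ENSMUSG00000023132) on chromosome 13 from 113093825 to 113100981, Nkg7 (ENSMUSG00000004612) on chromosome 7 from 43437073 to 43438249, Ncr1 (ENSMUSG00000062524) on chromosome 7 from 4337724 to 4345164 and Cd226 (ENSMUSG00000034028) on chromosome 18 from 89197431 to 89270201. All are protein-coding.

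Each table compares a pair of groups and lists only genes with an unadjusted p under 0.05 in the authors' own test, so a gene that a table leaves out has no value there. All 5 genes were listed for WT_HFD against WT_CHOW, Prf1, Nkg7 and Cd226 for KO_CHOW against WT_CHOW, Ncr1 and Cd226 for KO_HFD against WT_HFD, and Gzma for KO_HFD against KO_CHOW. Cd226 and Gzma thus have values in all 12 libraries, Prf1 and Nkg7 in all but KO_HFD, and Ncr1 in all but KO_CHOW. Libraries held between 36.7 and 56.8 M reads on genes, and the 5 genes had between 53 (Ncr1) and 2729 (Gzma) reads in a library. Tet2 was listed only for WT_HFD against WT_CHOW, where both groups are WT, and was 1.27-fold higher in WT_HFD (adjusted p = 0.184 in edgeR). Neither comparison of genotypes lists Tet2, so it did not pass the authors' threshold there. Without its values the deletion could not be checked in the TET2 KO libraries. Endothelial markers were present: the 12 of the list summed to between 297 and 1562 FPKM in the WT libraries. Leukocyte and epithelial markers were present as well.

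**Figure D1:**
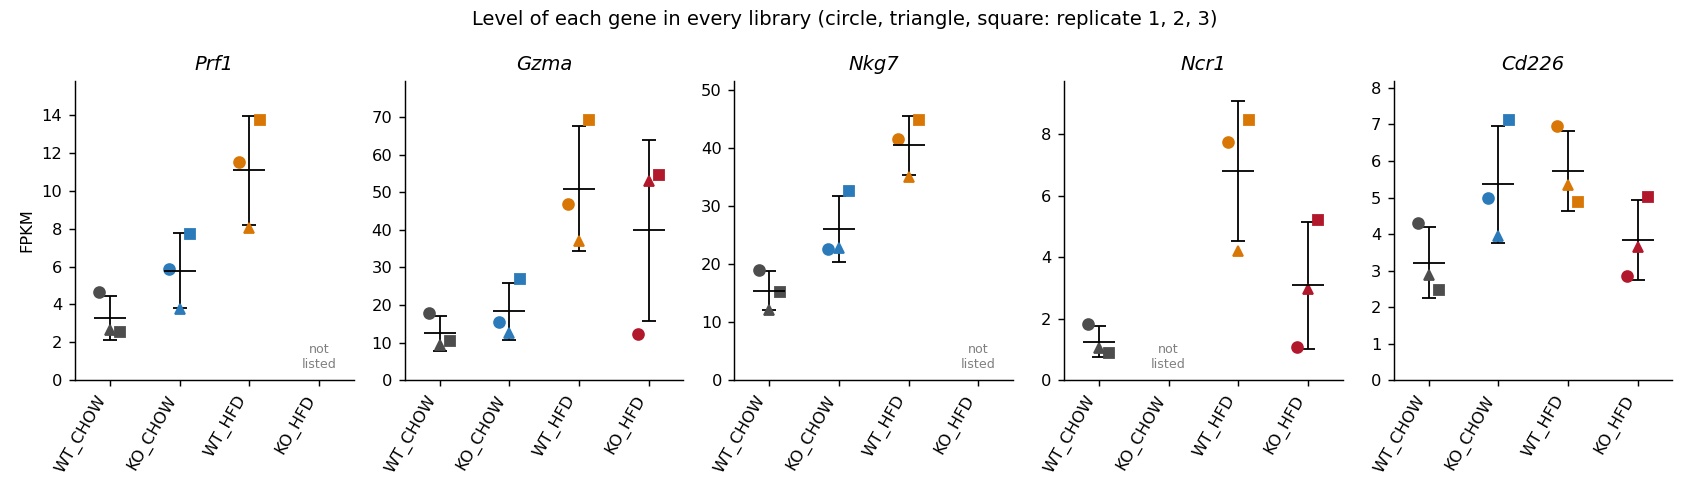
FPKM (y axis, linear from 0) of Prf1, Gzma, Nkg7, Ncr1 and Cd226 in every library by group, with replicates 1, 2 and 3 as circle, triangle and square and the mean ± SD (n = 3) in black; groups for which no table lists the gene are marked. The WT_HFD libraries lie above the WT_CHOW libraries for each gene, and Gzma in KO_HFD is split between 12.2 in replicate 1 and over 53 in the others.

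HFD feeding of WT mice went with higher levels of all 5 genes. The largest difference was that of Ncr1, at 5.45-fold, followed by Gzma at 4.09-fold, Prf1 at 3.39-fold, Nkg7 at 2.63-fold and Cd226 at 1.78-fold. In none of the 5 did the WT_HFD libraries overlap with the WT_CHOW libraries. At an unadjusted p under 0.05 in edgeR's quasi-likelihood test, 5 of 5 were higher, where 42.4% of the 7330 listed genes were called higher and 49.2% lower. Groups failed to overlap in the higher direction for 39.8% of the listed genes. The median log2 fold change of the 5 genes was 1.76, beside −0.32 over all listed genes. Because the 5 genes were chosen with earlier results of these data known, these values describe them and are not a test of the set.

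Among the granule genes, Prf1 had 4.64, 2.67 and 2.55 FPKM (reads scaled to gene length and library total) in the WT_CHOW libraries and 11.5, 8.03 and 13.7 in the WT_HFD libraries. Its log2 fold change was 1.76 ± 0.30 (SE), with an adjusted p of 0.086 in edgeR when genes that the table leaves out were counted as 1. The lowest WT_HFD library was thus well above the highest WT_CHOW library. Gzma had 17.8, 9.26 and 10.4 FPKM in WT_CHOW and 46.8, 37.0 and 69.2 in WT_HFD. This corresponded to 2.03 ± 0.33 (SE) on the log2 scale (adjusted p = 0.0854 in edgeR). Granzyme A mRNA was in this way the most abundant of the 5 in WT_HFD. Nkg7 had 19.0, 12.2 and 15.2 FPKM in WT_CHOW and 41.5, 35.0 and 44.8 in WT_HFD, with the smallest spread of the 5 genes in WT_HFD relative to its mean (40.4 ± 5.0, SD, n = 3). Its log2 fold change was 1.39 ± 0.19 (SE; adjusted p = 0.0833 in edgeR).

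Of the receptors, Ncr1 was low in WT_CHOW, at 1.82, 1.04 and 0.883 FPKM, and reached 7.76, 4.20 and 8.46 FPKM in WT_HFD. Its log2 fold change of 2.45 ± 0.38 (SE; adjusted p = 0.0839 in edgeR) rested on 53 to 123 reads in a WT_CHOW library and 256 to 679 in a WT_HFD library. NKp46 is the most selective of the 5 for natural killer cells. Cd226 had 4.32, 2.88 and 2.47 FPKM in WT_CHOW and 6.96, 5.33 and 4.89 in WT_HFD, which is a smaller step, with the groups closer to each other. Its log2 fold change was 0.84 ± 0.25 (SE; adjusted p = 0.192 in edgeR). None of the 5 had an adjusted p under 0.05 in edgeR, whereas in DESeq2 with the same size factors 4 of them did, all but Cd226.

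**Figure D2:**
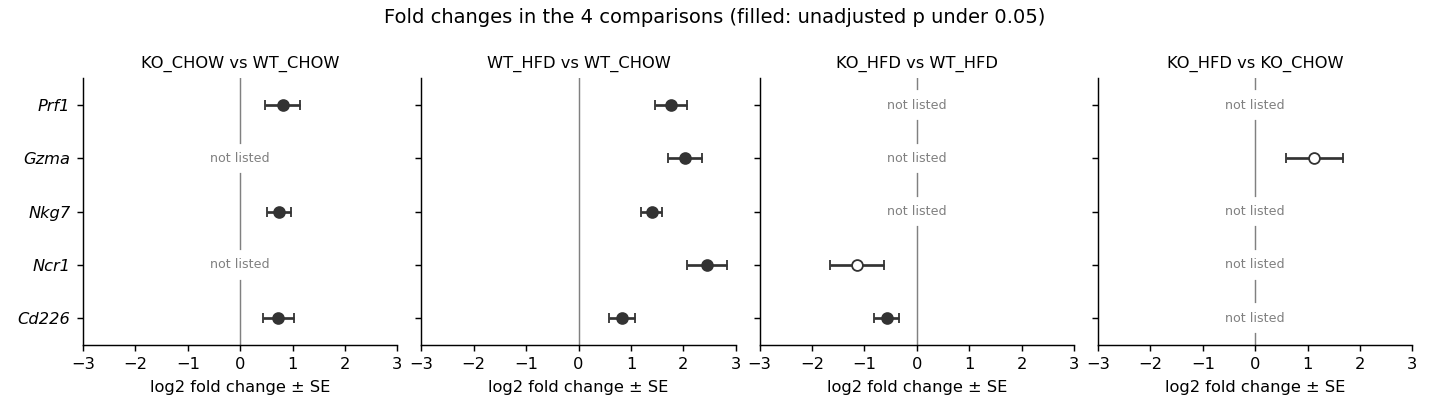
Log2 fold change ± SE (x axis, edgeR, n = 3 libraries in each group) of the 5 genes in the 4 comparisons, filled where the unadjusted p was under 0.05 and open where it was not. All 5 genes are above 0 in WT_HFD against WT_CHOW, from 0.84 for Cd226 to 2.45 for Ncr1, while the 2 genes listed in KO_HFD against WT_HFD are below 0.

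The proportions of the 5 genes differed between these WT_CHOW and WT_HFD libraries. Nkg7 made up 43.8% ± 4.12 (SD, n = 3) of their summed FPKM in WT_CHOW and 35.7% ± 3.69 in WT_HFD, with no overlap between the groups (39.9 to 48.1% against 31.75 to 39.1%). Gzma made up 34.5% ± 2.51 and 43.7% ± 4.60, again without overlap. The share of Prf1 was 9.12% ± 0.893 in WT_CHOW and 9.59% ± 0.554 in WT_HFD, and these ranges overlapped. Cd226 went from 9.06% ± 1.21 to 5.17% ± 1.47 and Ncr1 from 3.45% ± 0.563 to 5.82% ± 1.05, both without overlap. Relative to Prf1 in the same library, Ncr1 stood at 0.346 to 0.392 in WT_CHOW and at 0.523 to 0.675 in WT_HFD, and Cd226 at 0.930 to 1.08 and 0.356 to 0.664. The shares of 1 library depend on each other, and with 3 libraries against 3 the smallest p of an exact permutation test is 0.1, so none is given. How often the shares of other listed genes would separate in this way was not counted.

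**Figure D3:**
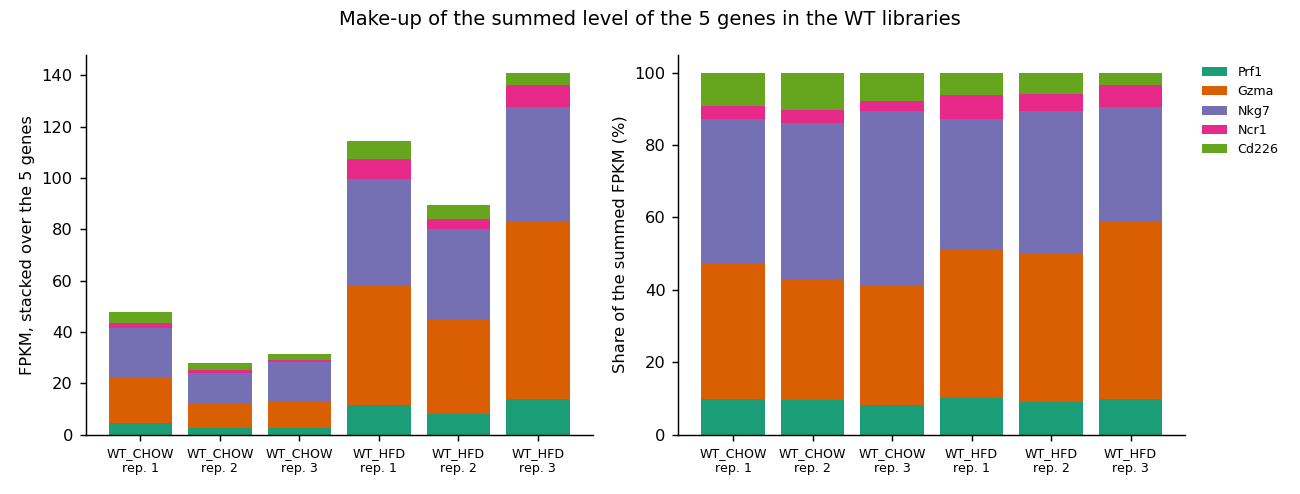
Summed FPKM of the 5 genes (left, stacked from 0) and the share of each in that sum in percent (right) for the 3 WT_CHOW and 3 WT_HFD libraries. The sum goes from 28.0 to 47.6 FPKM in WT_CHOW to 89.5 to 141 FPKM in WT_HFD, with a larger share of Gzma and Ncr1 and a smaller share of Nkg7 and Cd226.

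Other natural killer and cytotoxic genes moved in the same comparison. Of 96 genes in 7 lists of receptors, adaptors, granule content, released factors, cytokine receptors, transcription factors and receptor ligands, 45 were listed, 35 were called higher and 7 lower. Without the 5 genes themselves, 30 of the 40 listed were higher and 7 lower, with a median log2 fold change of 0.94. Over all 7330 listed genes 42.4% were called higher and 49.2% lower. In the list of natural killer receptors 16 of 18 listed genes were higher and 0 lower by edgeR. Klrb1c, which encodes the NK1.1 antigen, had 0.918 to 1.73 FPKM in WT_CHOW and 3.41 to 6.30 in WT_HFD (4.14-fold; adjusted p = 0.0854 in edgeR). Klra1, a receptor of the Ly49 family, was 3.16-fold higher (adjusted p = 0.146 in edgeR). Ly49 genes share near-identical stretches that the counting could divide among them, so the value of a single one is uncertain. The 16 called receptors include the Ly49 genes Klra1, Klra3, Klra7, Klra8 and Klra9, which may therefore not count as separate genes.

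In the list of granule content and release, 8 of 9 listed genes were higher. Besides Prf1, Gzma and Nkg7 these were Gzmb (granzyme B), Serpinb9 (a granzyme B inhibitor), Rab27a (which docks granules at the membrane), Ctsw and Cst7. Gzmm, which encodes granzyme M, was the exception, with a difference of −0.85 ± 0.22 (SE) on the log2 scale (adjusted p = 0.147 in edgeR). All 4 listed genes of released factors were higher, namely Ifng, Ccl5, Xcl1 and Tnfsf10. Tnfsf10, which encodes the death ligand TRAIL, went from 4.82 to 12.01 FPKM in WT_CHOW to 16.4 to 34.9 in WT_HFD (3.60-fold; adjusted p = 0.114 in edgeR). The 3 listed transcription factors (Eomes, Zeb2 and Id2) were higher. Among cytokine receptors Il12rb1 was higher and Il21r lower.

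The list of ligands, which also holds the cytokine genes Il18 and Il12b and the receptor gene Il15ra, was divided. Of its 9 listed genes 3 were higher (H2-T23, Clec2d and Il15ra), 5 lower (Raet1e, H60b, Ulbp1, Il18 and Il12b) and 1 not called (Nectin3). Raet1e, H60b and Ulbp1 encode ligands of the activating receptor NKG2D, whose gene Klrk1 was higher. Nectin3 had a log2 fold change of 0.91 ± 0.40 (SE) that did not pass the test in edgeR.

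**Figure D4:**
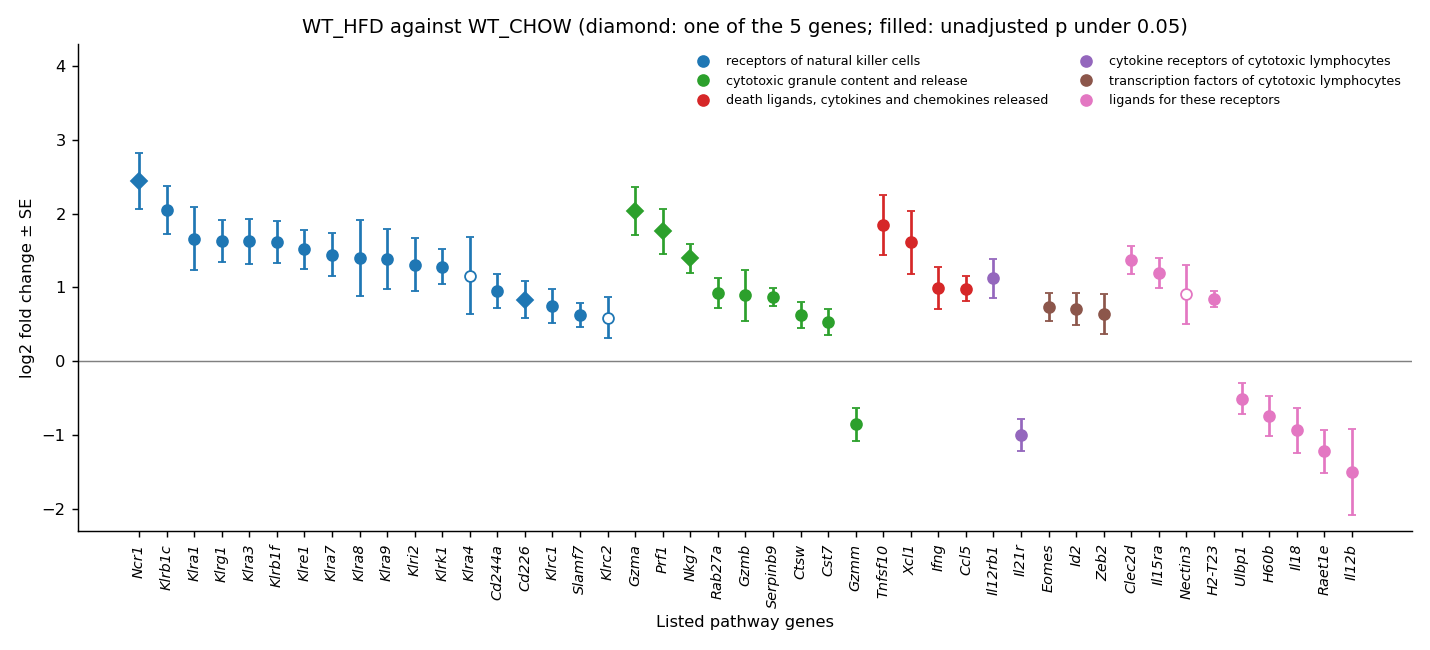
Log2 fold change ± SE (y axis, edgeR) of the 45 pathway genes listed for WT_HFD against WT_CHOW, coloured by list, with diamonds for the 5 genes and open symbols for genes that did not pass an unadjusted p under 0.05. All 16 called genes of the natural killer receptor list are above 0. Of the 8 called genes of the ligand list 5 are below 0, as are Gzmm and Il21r.

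Markers of other cells moved in this comparison too. Of the endothelial list 12 of 12 genes were listed, 11 higher and 0 lower by edgeR, and their summed FPKM was 297 to 837 in WT_CHOW and 883 to 1562 in WT_HFD. Of 15 T cell markers 2 were listed and both were higher (summed FPKM of 23.6 to 37.1 in WT_CHOW and 34.6 to 51.4 in WT_HFD). Of the 10 genes of monocytes and macrophages 3 were higher and 3 lower, of the 6 of neutrophils 1 was lower, of the 5 of leukocytes in general 1 was higher, of the 8 of lung epithelium 2 were higher and 1 lower, of the 7 of fibroblasts and smooth muscle 1 was listed and not called, and of the 6 B cell markers none was listed. The part of these shifts in the levels of the 5 genes was not tested. Set against the summed endothelial FPKM of the same library, Prf1 stood at 3.05 to 13.5 per 1000 in WT_CHOW and 6.40 to 15.6 in WT_HFD, and the ranges overlapped for each of the 5 genes. On this scale the means of Cd226 and Nkg7 lay in the other direction, with 8.39 ± 4.92 (SD, n = 3) per 1000 in WT_CHOW and 4.75 ± 0.694 in WT_HFD for Cd226, and 38.1 ± 18.7 and 35.0 ± 13.6 for Nkg7. The means of Gzma, at 31.8 ± 19.6 and 45.9 ± 28.1, and of Ncr1, at 3.29 ± 2.13 and 5.97 ± 3.24, remained higher in WT_HFD, as did that of Prf1. Within a diet the sum of the 5 genes and the endothelial sum were both higher in replicate 1 than in replicate 2, while replicate 3 stood apart. In WT_HFD the 5 genes summed to 141 FPKM in replicate 3, whose endothelial sum of 883 was the lowest of the 3, and in WT_CHOW to 31.5 in replicate 3, whose endothelial sum of 837 was the highest. The 4 other listed natural killer markers (Klrb1c, Klre1, Eomes and Klra8) summed to 4.23 to 8.48 FPKM in WT_CHOW and 10.6 to 20.8 in WT_HFD. In bulk RNA, more cells of a type and more RNA in each cell cannot be told apart.

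TET2 KO mice on chow had higher levels of Prf1, Nkg7 and Cd226 than WT mice on chow. The differences were 1.75-fold for Prf1, 1.68-fold for Nkg7 and 1.66-fold for Cd226. All 3 listed genes were called higher at an unadjusted p under 0.05 in edgeR, where 30.6% of the 1298 listed genes were called higher and 46% lower. Nkg7 was the single one of the 3 whose groups did not overlap, which held in the higher direction for 30.7% of the listed genes. The WT_CHOW libraries are the same ones as in the comparison of diets, so that both comparisons share their baseline.

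Nkg7 had 22.7, 22.7 and 32.6 FPKM in KO_CHOW beside 19.0, 12.2 and 15.2 in WT_CHOW, which is 0.74 ± 0.23 (SE) on the log2 scale (adjusted p = 1.0 in edgeR). Prf1 had 5.87, 3.77 and 7.71 FPKM in KO_CHOW, a difference of 0.81 ± 0.34 (SE) on the log2 scale (adjusted p = 1.0 in edgeR). Its lowest KO_CHOW library, replicate 2, lay below the highest WT_CHOW library at 4.64. Cd226 had 5.0, 3.95 and 7.12 FPKM in KO_CHOW, a difference of 0.73 ± 0.30 (SE) on the log2 scale (adjusted p = 1.0 in edgeR), and overlapped in the same way. Replicate 3 of KO_CHOW was the highest for all 3 genes. Without it the log2 fold changes were 0.55 for Nkg7, 0.55 for Prf1 and 0.47 for Cd226, and none of the 3 was called in edgeR. Without WT_CHOW replicate 2, WT_CHOW replicate 3 or KO_CHOW replicate 1, Nkg7 alone was called. The same held with scaling by TMM factors (trimmed mean of M-values) computed on the listed genes, at 0.75 for Nkg7, 0.80 for Prf1 and 0.72 for Cd226.

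Of the 96 pathway genes 14 were listed in this comparison, 7 called higher and 0 lower by edgeR. The granule list had 4 of 4 listed genes higher, namely Prf1, Nkg7, Rab27a and Cst7, which encodes the protease inhibitor cystatin F. Cst7 had 3.98 to 4.58 FPKM in WT_CHOW and 5.46 to 8.10 in KO_CHOW (1.52-fold; adjusted p = 1.0 in edgeR). Ccl5, a chemokine stored by cytotoxic T cells, went from 26.5 to 36.3 to 43.2 to 48.7 FPKM (1.45-fold; adjusted p = 1.0 in edgeR). Clec2d, a ligand of NKR-P1 receptors, was 1.63-fold higher. Of the natural killer receptors 3 of 25 were listed, and apart from Cd226 these (Klrb1f and Klrg1) did not pass the test. T cell markers moved in the same libraries: 9 of 15 were listed, 6 higher and 0 lower by edgeR, and their summed FPKM was 207 to 334 in WT_CHOW and 346 to 469 in KO_CHOW. Of the 9 natural killer markers only Prf1 and Nkg7 were listed, and of the 12 endothelial markers none. The single listed marker of monocytes (Ccr2) was higher, while the 4 listed genes of fibroblasts and the 1 of lung epithelium were lower. The part of these cells in the levels of Prf1, Nkg7 and Cd226 was not tested.

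Of the 5 genes, Cd226 alone was listed in both genotype comparisons, and on HFD its difference pointed the other way. The turn was not particular to it. Among the pathway genes, Clec2d (log2 fold change 0.70 ± 0.22, SE, on chow and −0.95 ± 0.17 on HFD) and Rab27a (0.49 ± 0.14 and −0.65 ± 0.26) turned likewise. So did Tnfsf10 (0.86 and −1.27) and Il15ra (0.66 and −0.79), which were not called on chow in edgeR. Ncr1 has no values in KO_CHOW, and Prf1 and Nkg7 have none in KO_HFD. Whether their genotype differences change direction with diet therefore cannot be seen. Cd226 was 1.49-fold lower in KO_HFD than in WT_HFD and was called, while Ncr1 was 2.21-fold lower on average and was not called in edgeR. Thus 1 of 2 listed genes was called lower, where 39.1% of the 3939 listed genes were called lower and 43.1% higher. With TMM factors taken from the listed genes the balance over all listed genes turned, from 1699 higher and 1542 lower to 1304 higher and 1744 lower. The groups overlapped for both genes, while 35.8% of the listed genes were lower without overlap.

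Cd226 had 2.85, 3.64 and 5.02 FPKM in KO_HFD beside 6.96, 5.33 and 4.89 in WT_HFD, which is −0.58 ± 0.24 (SE) on the log2 scale (adjusted p = 0.834 in edgeR). Only replicate 3 of KO_HFD lay within the range of WT_HFD. The call was lost in edgeR without KO_HFD replicate 1 (log2 fold change −0.41), KO_HFD replicate 2 (−0.54), WT_HFD replicate 1 (−0.41) or WT_HFD replicate 2 (−0.62), and with TMM factors taken from the listed genes (−0.66), which moved the median of all listed genes by −0.11. Ncr1 had 1.08, 2.96 and 5.22 FPKM in KO_HFD beside 7.76, 4.20 and 8.46 in WT_HFD, so that replicate 3 of KO_HFD exceeded replicate 2 of WT_HFD. Its log2 fold change was −1.14 ± 0.52 (SE; adjusted p = 0.942 in edgeR), and it was called in DESeq2, where the threshold on the unadjusted p was the same. Without KO_HFD replicate 3 it was −1.75 and without WT_HFD replicate 2 it was −1.39, and in both cases it passed the threshold in edgeR.

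Of the pathway genes 17 were listed on HFD, 9 lower and 3 higher in KO_HFD, and without Ncr1 and Cd226 the listed ones had a median log2 fold change of −0.65, beside 0.33 over all listed genes. Xcl1, a chemokine of activated natural killer and T cells, had 2.75 to 6.24 FPKM in WT_HFD and 1.22 to 1.86 in KO_HFD (3.08-fold lower; adjusted p = 0.702 in edgeR). Tnfsf10 was 2.41-fold lower, Klra1 2.16-fold lower, Clec2d 1.94-fold lower and Il15ra 1.73-fold lower, whereas Il21r was 2.02-fold higher. Endothelial markers moved beside them, with 9 of 12 listed, 8 lower and 0 higher by edgeR, and summed FPKM of 822 to 1450 in WT_HFD and 430 to 790 in KO_HFD. Both listed genes of lung epithelium and the 1 of monocytes were lower, no T cell marker was listed, and of the natural killer markers Ncr1 alone was listed. The part of these shifts in Cd226 and Ncr1 was not tested.

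For HFD against chow in TET2 KO mice a single gene of the 5 was listed, Gzma, with a mean difference of 2.18-fold. It was not called in edgeR, where 29.3% of the 1628 listed genes were called higher and 47.7% lower, and it was called in DESeq2 at the same unadjusted threshold, although not after adjustment. Gzma had 15.5, 12.5 and 26.9 FPKM in KO_CHOW and 12.2, 53.1 and 54.5 in KO_HFD. Replicate 1 of KO_HFD thus lay below all 3 KO_CHOW libraries while the other two lay above them. The log2 fold change was 1.13 ± 0.54 (SE; adjusted p = 1.0 in edgeR). Without KO_HFD replicate 1 it was 1.56, and without KO_CHOW replicate 3 it was 1.51, and in both cases it passed the unadjusted threshold in edgeR. KO_HFD replicate 1 was also the lowest KO_HFD library for Ncr1 and Cd226. With TMM factors taken from the listed genes, which moved the median log2 fold change of all listed genes by 0.27 and the share of higher calls from 38.0% to 65.6%, Gzma was at 1.32 and was called.

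Of the pathway genes 14 were listed in this comparison, 2 higher and 7 lower. This balance turned to 5 higher and 3 lower with TMM factors taken from the listed genes and to 5 higher and 2 lower without KO_HFD replicate 1. The lower ones included Ccl3 (2.30-fold lower), Ccl4 (1.98-fold), Tnf (1.68-fold), Il18 (1.82-fold), Raet1e (2.16-fold) and Fcgr3, which encodes the Fc receptor CD16 (1.71-fold). Ccl3, Ccl4 and Tnf are also made by macrophages. Of the monocyte and macrophage markers 5 were listed, 3 lower and 0 higher by edgeR, with summed FPKM of 4002 to 5608 in KO_CHOW and 2018 to 3430 in KO_HFD. Of the T cell markers 5 were listed and all 5 were lower, at 187 to 255 FPKM against 118 to 161. The 1 listed endothelial marker was higher, 2 of 3 listed fibroblast genes were higher and the 1 listed epithelial gene was lower. Gzma was the only natural killer marker listed. The part of these shifts in Gzma was not tested.

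Cd226 and Gzma could be compared over all 4 groups in a single fit of the 975 genes with counts in every library. For Cd226 the interaction of genotype and HFD was −1.31 ± 0.42 (SE) on the log2 scale (adjusted p = 0.0213 over the 975 genes in edgeR). In this fit 28.6% of genes had an interaction called below 0 and 27.8% above 0 at an unadjusted p under 0.05, and a gene enters it only if tables covering all 4 groups list it. Cd226 entered through tables that list it for both genotype comparisons, higher in TET2 KO on chow and lower on HFD, and the interaction is the difference between these values, so its p-value is not independent of the listing. Cd226 rose with HFD in WT by 0.83 ± 0.30 (SE) on the log2 scale, while between KO_CHOW and KO_HFD its log2 fold change was −0.48 ± 0.30 (SE), which was not called. Here the difference between KO_HFD and WT_HFD in Cd226 was −0.58 ± 0.30 (SE) and was not called either. For Gzma the interaction was −0.90 ± 0.70 (SE; adjusted p = 0.371 in edgeR) and was not called. Its log2 fold change between KO_CHOW and WT_CHOW was 0.55 ± 0.50 (SE) and between KO_HFD and WT_HFD −0.35 ± 0.50 (SE). Neither passed the test, and these errors leave room for differences of either sign on HFD. The difference between KO_HFD and KO_CHOW in Gzma was 1.12 ± 0.50 (SE; adjusted p = 0.0905 in edgeR) and, unlike in the fit of that pair of groups alone, passed the unadjusted threshold.

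The order of the group means differed between Cd226 and Gzma, the 2 genes with values in all groups. Cd226 went from 3.22 ± 0.970 FPKM (SD, n = 3) in WT_CHOW over 3.84 ± 1.10 in KO_HFD and 5.36 ± 1.61 in KO_CHOW to 5.73 ± 1.09 in WT_HFD, and the ranges of each pair of neighbours overlapped. Gzma went from 12.5 ± 4.64 in WT_CHOW over 18.3 ± 7.57 in KO_CHOW and 39.9 ± 24.0 in KO_HFD to 51.0 ± 16.5 in WT_HFD, again with overlap between neighbours. Ncr1 went from 1.25 ± 0.502 in WT_CHOW over 3.09 ± 2.07 in KO_HFD to 6.81 ± 2.28 in WT_HFD, with overlap between neighbours and none between the ends. For Nkg7 the means of 15.4 ± 3.44 in WT_CHOW, 26.0 ± 5.70 in KO_CHOW and 40.4 ± 5.0 in WT_HFD belonged to groups that did not overlap at all. Prf1 stood at 3.29 ± 1.18, 5.78 ± 1.97 and 11.1 ± 2.88 in the same groups, and there KO_CHOW overlapped with WT_CHOW but not with WT_HFD. No table compares KO_CHOW with WT_HFD, and how often other genes separate between these groups was not counted. Of the listed genes, 30.7% were higher without overlap in KO_CHOW than in WT_CHOW. In WT_HFD against WT_CHOW this share was 39.8%.

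Genes with the most similar pattern were sought for each of the 5 by the smallest SD over libraries of the log2 ratio of the FPKM values. For Prf1, over 9 libraries and 585 genes, these were Klrb1f (SD 0.24), Klrg1 (0.26) and Gzma (0.28), where Prf1 itself varied with an SD of 0.87. Klrb1f and Klrg1 encode lectin-like receptors of natural killer cells, the latter also of effector T cells. For Nkg7 (SD 0.65), over 9 libraries and 732 genes, they were Phf11b (0.14), Klrb1f (0.15) and Zbp1 (0.16), the last a sensor of nucleic acids induced by interferon. For Ncr1 (SD 1.27), over 9 libraries and 765 genes, they were Gzma (0.43), Phf11b (0.55) and Palm (0.57). For Gzma (SD 1.05), over 12 libraries and 369 genes, they were S1pr5 (0.41), a sphingosine-1-phosphate receptor of natural killer cells, Adgre4 (0.42) and Eno3 (0.48). For Cd226 (SD 0.49), over 12 libraries and 660 genes, they were Zc3h12d (0.14), Zdhhc15 (0.16) and Swap70 (0.17), while Gzma ranked 379th with 0.83. The libraries of a gene share their mice and depth, the genes compared differ from one to the next, and the ratio depends on the groups for which both genes were listed.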

How the data were processed

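RNA of CD31+ lung cells from 12 mice gave 1 library each. Per the labels, the authors aligned reads to mm10 with HISAT2, obtained gene counts with featureCounts and compared pairs of groups in DESeq2; the versions, the annotation and whether counting used strand are not given in the sources used here. The authors deposited raw counts, a normalized signal (the count divided by a size factor of each library and table) and FPKM values. Other deposited columns hold group means, log2 fold changes and p-values of the authors, which were not used. Replicates are separate mice.

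Totals of 36.7 to 56.8 M reads followed from the deposited counts, lengths and FPKM, a depth at which mouse-to-mouse spread rather than counting error sets the precision of the 5 genes. Counts of all genes in a table were fitted with edgeR 4.0.16 in R 4.3.3 (quasi-likelihood test), with the deposited size factors, the 2 groups compared and no covariate. Calls are at an unadjusted p under 0.05. The SE given for edgeR is the absolute log2 fold change divided by the square root of the F statistic of that test. Dispersions were estimated on the fitted genes alone. The fit of 12 libraries was scaled by library totals in place of the deposited size factors. The edgeR p-values were adjusted by Benjamini-Hochberg for the 55450 genes of GENCODE M21, counting genes that a table leaves out as 1, except in the fit of 12 libraries, which adjusts over its 975 genes. Alternatives were DESeq2 1.42.0, limma-trend (limma 3.58.1) on log2(FPKM + 0.1) or log2(FPKM + 1), TMM factors, library totals, a minimum mean of 10 normalized counts, the replicate number as a block, other thresholds and leaving out each library. TMM factors were computed on the listed genes alone, all of which differ between the groups in the authors' test. This scaling is therefore not independent of the listing. The fits were tested on simulated data. The 5 genes, the 7 pathway lists and the 9 marker lists were chosen with earlier results of these data known, and 1 gene of the pathway lists is not reported here. Pathway genes named with values are up to 6 called genes in each comparison by largest fold change, whose higher group averaged 50 or more normalized counts; other pathway genes named were chosen after their values were seen. Similar patterns were sought among genes with values in every library in which the gene itself had values. They also needed a mean of at least 1 FPKM and at least 0.5 times the SD of the gene, and 3 are named for each. Such genes were themselves listed for those groups, so a similar pattern is not independent of the listing. Python 3.11.15 with pandas 2.3.3 and matplotlib 3.10.9 made summaries and figures.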

Additional observations from a re-analysis of the deposited data

Results flagged for a closer look

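The difference in the effect of HFD on Cd226 between genotypes was singled out because the test of the difference itself passed, with an interaction of −1.31 on the log2 scale in edgeR. The gene had entered this fit because tables list it as higher in TET2 KO on chow and lower on HFD, and the interaction is the difference between these values, so that passing was in large part set by the listing. Of the 975 genes fitted, 28.6% passed below 0 and 27.8% above 0. WT libraries went from 2.47 to 4.32 FPKM on chow to 4.89 to 6.96 on HFD, and TET2 KO libraries from 3.95 to 7.12 on chow to 2.85 to 5.02 on HFD. The interaction stayed below 0 in all 12 fits that left out a library, from −1.58 to −1.05, with adjusted p-values from 0.0146 to 0.0554 in edgeR. All 12 fits hold a gene chosen through the listing, so they cannot tell whether its interaction is independent of it.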

How the results depend on the processing

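Over 171 recomputed fold changes and interactions of single genes none reversed its sign, 141 kept their side of the threshold, 20 lost it and 10 gained it. In WT_HFD against WT_CHOW the 5 calls were unchanged in number under every alternative test, scaling and left-out library (5 to 5), and 0 remained at an adjusted p under 0.05 with genes left out of the table counted as 1, where DESeq2 gave 4. The count of pathway genes (42) became 0 under that threshold and 22 with a log2 fold change over 1, and was 36 to 41 without a library. In KO_CHOW against WT_CHOW the 3 calls became 1 with TMM factors and 0 to 3 without a library, and the 7 pathway calls 4 to 9. Both became 0 under either adjusted threshold and with a log2 fold change over 1. In KO_HFD against WT_HFD the 1 call became 2 in DESeq2 and in limma-trend with either pseudocount, 0 with TMM factors, 0 to 2 without a library and 0 under the 3 other thresholds. The 12 pathway calls there became 0 and 3 under the adjusted thresholds (all genes or listed genes), 5 with a log2 fold change over 1 and 4 to 15 without a library. In KO_HFD against KO_CHOW the count of 0 became 1 in DESeq2 and with TMM factors and 0 to 1 without a library, and the 9 pathway calls became 0 under either adjusted threshold, 2 with a log2 fold change over 1 and 4 to 9 without a library, and their 2 higher and 7 lower turned to 5 and 3 with TMM factors and to 5 and 2 without KO_HFD replicate 1. The interaction kept 1 call in DESeq2, with the replicate block and without each library. It was not refitted with other scalings or in limma-trend. The cause of these shifts was not tested.

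With the replicate number as a block, members called numbered 2, 5, 1 and 0 in the order KO_CHOW against WT_CHOW, WT_HFD against WT_CHOW, KO_HFD against WT_HFD and KO_HFD against KO_CHOW, pathway genes 8, 38, 14 and 11, and the interaction kept 1. In KO_HFD against WT_HFD the block called Ncr1 in place of Cd226. The labels do not say that numbers pair mice, and deviations of libraries with the same number correlated between −0.139 and 0.212.

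Values exist only for genes under the authors' threshold, so that called shares are high for any list, and genes that did not differ are not analysed here.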
